A study of Mus musculus with 19 samples.

Results

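Pfkfb3 and 1110051M20Rik, 2 genes of 21887 protein-coding genes on the annotation used, each held a pair of neighbouring ATAC-seq summit regions that no library occupied together. ATAC-seq cuts accessible DNA with a transposase, and a summit is the position at which a library's peak of cuts is highest. The genes were chosen because all 4 mutants, or all 5 controls on a retinoic acid diet, had their summit in the one region of a pair and all 4 controls had it in the other. Those contrasts are therefore described here without a test. Of 1547369 summits deposited for 19 libraries, 154 belonged to Pfkfb3 and 292 to 1110051M20Rik, by lying inside the gene or having its end nearest within 100 kb. Of the 29112 best-scoring summits of each library, a set of equal size taken so that long and short lists could be compared, 84 and 153 belonged to them.

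The libraries came from forebrain neural progenitors of mouse embryos at embryonic day 14, separated magnetically by the surface protein Prom1. Foxc1 is a transcription factor of the meninges, the membranes around the brain, which supply the forebrain with retinoic acid. There were 6 libraries of mutants on the diet (Foxc1 hith/LacZ, RA diet), 5 of controls on the diet (Foxc1 WT, RA diet), 4 of mutants (Foxc1 hith/LacZ, no diet) and 4 of controls (Foxc1 WT, no diet). The hith allele is known as a hypomorph, so that these mutants keep some Foxc1 function. The alleles are carried by the whole embryo and not by the sorted cells alone. Mutant 1 carries the title of a mutant and the genotype label Foxc1 WT. No label names the animal, litter or batch of a library, or says whether animals were pooled.

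Pfkfb3 encodes a 6-phosphofructo-2-kinase. The enzyme makes fructose 2,6-bisphosphate, a strong activator of phosphofructokinase-1, and so speeds glycolysis, which progenitors of the embryonic brain use heavily. Its gene is known to have alternative start sites and to be induced by hypoxia. 1110051M20Rik is the mouse counterpart of human CSTPP1, whose product in human cells regulates the tubulin polyglutamylase complex at centriolar satellites. In ATAC-seq data a promoter or enhancer can give a peak much wider than the DNA one protein covers, and a summit reduces that peak to a single base.

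The promoter windows at the inner Pfkfb3 start and at the start of 1110051M20Rik are printed first, because at Pfkfb3 the choice of summit was a choice between a start site and the DNA past it. Both are RefSeq sequences on GRCm38.p6, minus strand, running from 250 bases before the start site to 50 after it. Capitals mark the stretch inside a summit region.
Pfkfb3 inner start, chr2:11502041-11502340: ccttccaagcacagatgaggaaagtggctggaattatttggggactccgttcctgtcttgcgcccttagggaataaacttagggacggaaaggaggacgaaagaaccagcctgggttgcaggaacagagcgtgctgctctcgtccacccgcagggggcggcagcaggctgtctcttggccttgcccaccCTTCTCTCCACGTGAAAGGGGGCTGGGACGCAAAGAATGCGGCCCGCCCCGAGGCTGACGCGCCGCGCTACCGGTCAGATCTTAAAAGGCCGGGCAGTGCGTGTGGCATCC
1110051M20Rik, chr2:91444665-91444964: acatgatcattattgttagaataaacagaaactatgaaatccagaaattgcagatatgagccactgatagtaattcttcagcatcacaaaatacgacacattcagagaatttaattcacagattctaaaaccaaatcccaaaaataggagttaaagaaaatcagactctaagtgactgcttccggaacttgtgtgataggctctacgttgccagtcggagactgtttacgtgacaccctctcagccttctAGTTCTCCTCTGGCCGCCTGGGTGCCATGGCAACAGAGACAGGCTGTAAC
In the Pfkfb3 window 111 bases were in capitals, and they hold the palindrome CACGTG, which reads as ACGTG on each strand. ACGTG, 1 form of the core of the hypoxia response element, was searched on both strands with overlaps counted. Other forms of the core were not searched. It occurred 2 times in the inner Pfkfb3 window, these overlapping matches lying from 53 bases before the start, and 1 time in the 1110051M20Rik window. It was present in 19.6% of all 32817 RefSeq promoter windows of the same length. The GC box GGGCGG occurred 2 times at the inner Pfkfb3 start and 0 times at 1110051M20Rik, against a presence in 35.6% of all windows. AGGTCA, the hexamer bound by nuclear receptors, occurred 0 times in either window and in 16.3% of all windows. CCAAT also occurred 0 times in either, against 37.4% of all windows. Guanine and cytosine made up 61.0% of the Pfkfb3 window and 41.3% of the 1110051M20Rik window, beside a median of 52.7% over all windows. The Pfkfb3 window held 20 CpG dinucleotides and the 1110051M20Rik window 6, beside a median of 7. The window at the outer Pfkfb3 start, chr2:11553880-11554179, which 1 summit of 1 library touched, is not printed. It held 1 ACGTG, 3 GGGCGG, 0 AGGTCA, 0 CCAAT and 30 CpG dinucleotides, with 69.7% guanine and cytosine.

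Pfkfb3 spans chr2:11471430-11554071 (mm10, minus strand) and has 2 listed start sites. The outer one is at 11553929 and the inner one, 51.8 kb into the gene, at 11502090. The regions of the pair were chr2:11502003-11502151, which spans the inner start, and chr2:11501397-11501594, which begins 496 bp past it. These are called the upstream and the downstream region below, by the direction of the gene. The upstream region also held the start of the lncRNA gene Gm52500, which runs the opposite way from 11502010, 80 bp from the inner start. The gap between the regions was 409 bp and the window over both was 754 bp long. Every one of 19 libraries had exactly 1 deposited summit in that window, of any score, and it lay in the gap in 0 of them. Such a split was common: 1563 of 2756 neighbouring pairs in the genome (56.7%) had no library in both regions, and 498 (18.1%) had every library in exactly 1.

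The mutants on the diet had their summits 61 bp upstream of the inner start in replicate 1, 35 bp upstream in replicate 4, and 595, 496, 687 and 578 bp downstream in replicates 2, 3, 5 and 6. The controls on the diet had them 604, 584, 533, 674 and 578 bp downstream. The mutants had them 579, 579, 672 and 693 bp downstream, and the controls 87 bp downstream, 61 bp upstream, 14 bp upstream and 61 bp upstream. The downstream region thus held 4 of 6 mutants on the diet, 5 of 5 controls on the diet, 4 of 4 mutants and 0 of 4 controls. Mutants lay wholly opposite to controls at 3 of 2756 pairs (0.109%), and controls on the diet wholly opposite to controls at 2 (0.0726%), which is how the genes were found. Within the upstream region 6 libraries used 4 positions, and 1 base, 61 bp before the start, was the summit of mutant on the diet 1, control 2 and control 4. Within the downstream region 13 libraries used 11 positions.

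**Figure D1:**
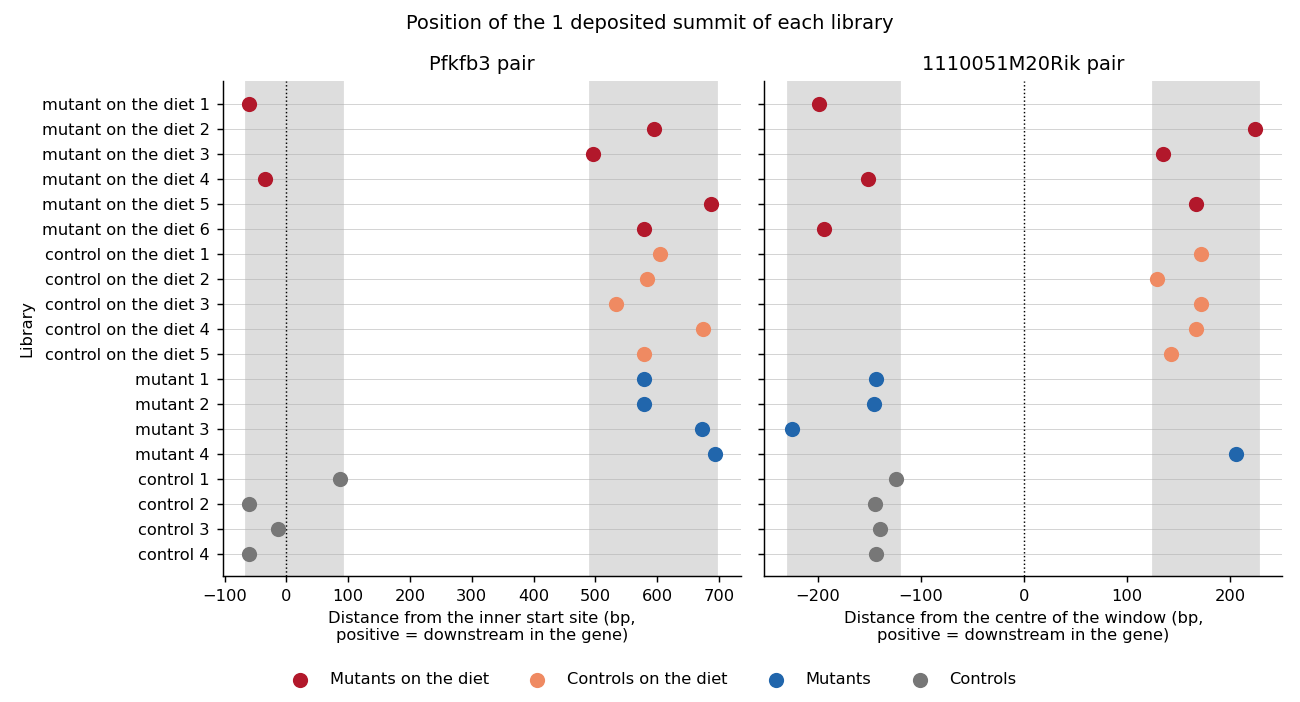
Position of the only deposited summit of each library in the pair window, in bp along the gene, at Pfkfb3 from the inner start site (left) and at 1110051M20Rik from the window's centre (right); each point is 1 library, coloured by group. At Pfkfb3 all 4 controls lie between 61 bp before and 87 bp after the start, and 4 of 6 mutants on the diet, all controls on the diet and all mutants lie 496 to 693 bp after it.

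The comparisons of the mutants on the diet were not those that chose the genes, although the libraries of mutants and of controls on the diet also served in that choice. At Pfkfb3 the choice fixed the side of all 4 mutants and all 5 controls on the diet. Only the mutants on the diet were free to vary, so the side p-values there describe the split and are no independent test. The side of the Pfkfb3 summit did not separate mutants on the diet from mutants (4 of 6 against 4 of 4 downstream, 2-sided Fisher's exact test p = 0.467, Benjamini-Hochberg adjusted p = 1 over 2756 pairs). It did not separate them from controls on the diet either (4 of 6 against 5 of 5, Fisher's exact test p = 0.455, adjusted p = 1). The smallest exact p these group sizes allow is 0.00476 for 6 against 4 and 0.00216 for 6 against 5. Over all 2756 neighbouring pairs less than 1 kb apart, this test called 0 (0%) in each comparison, and 29 (1.05%) and 17 (0.617%) had an unadjusted p under 0.05. At these group sizes a single pair cannot pass adjustment over 2756 pairs, however clean its split. A call would need many cleanly split pairs at once, and 0 pairs had the groups wholly on opposite sides in either comparison. The adjusted p-values and the 0 calls therefore decide nothing about a single pair.

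Openness was measured apart from position, as the rank of the window's summit by score among all summits of its library, rank 1 being the best. At Pfkfb3 the ranks were 10490, 10444, 8506, 7329, 7394 and 2403 in mutants on the diet 1 to 6, and 5702, 7816, 5722, 6027 and 6001 in controls on the diet 1 to 5. They were 3908, 4269, 2856 and 3435 in mutants and 7450, 6665, 5439 and 5700 in controls. By median the mutants ranked best, without overlap with the controls or the controls on the diet. How many of all pair windows part these groups as cleanly was not counted. No mutant on the diet fell inside the range of the mutants: replicate 6 ranked better than every mutant and each other replicate worse. Replicates 4 and 5 fell inside the ranges of the controls and of the controls on the diet. The median rank was 7950 in mutants on the diet, 6001 in controls on the diet, 3671.5 in mutants and 6182.5 in controls. In every library the summit was within the best 25.2% of its list, whichever region held it.

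On a scale of minus log2 rank, on which a higher value means a better rank, Pfkfb3 was 0.98 lower in mutants on the diet than in mutants (difference -0.98, SE 0.32, 95% interval -1.65 to -0.31). The unadjusted limma p was 0.00637 and the adjusted p 0.265, so the difference did not pass over all pair windows. 1 library decided the call: without mutant on the diet 6, the best-ranked of its group, the difference was -1.29 with an adjusted limma p of 0.00405. That library is also the one flagged below on this same value. Leaving it out raised the calls over all windows as well, to 70 of 2628, so the change was not particular to Pfkfb3. Against controls on the diet the difference was -0.18 (SE 0.30, interval -0.81 to 0.45; limma, adjusted p = 0.999). That value also moved with 1 library, to -0.49 (interval -0.93 to -0.05; limma, unadjusted p = 0.0294, adjusted p = 0.754) without mutant on the diet 6 and to -0.07 without mutant on the diet 1 or 2. Without mutant 1, whose labels conflict, the difference from mutants was -1.02 with an adjusted limma p of 0.194. Limma called 0 of 2756 windows (0%) in each comparison. Windows with an unadjusted p under 0.05 numbered 335 (12.2%) against mutants and 72 (2.61%) against controls on the diet. The deposited scores in the Pfkfb3 window, minus log10 q-values that depend on depth, ran from 14.9 to 101 in mutants on the diet, 63.5 to 157 in controls on the diet, 25.4 to 245 in mutants and 91.3 to 226 in controls, and all 4 ranges overlapped.

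**Figure D2:**
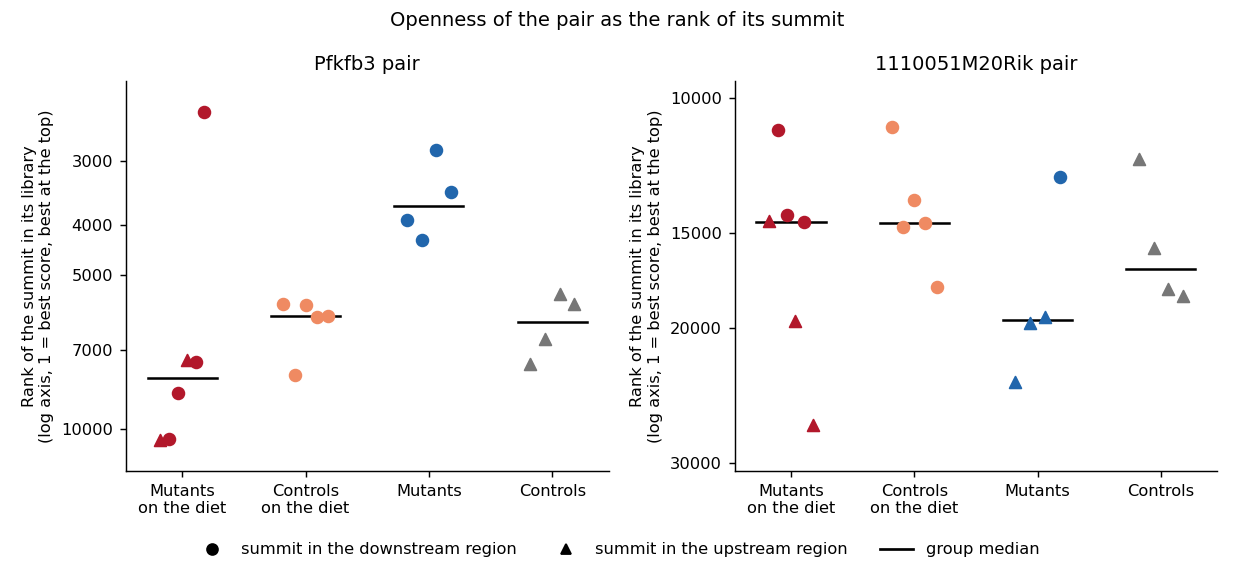
Rank of the pair window's summit in each library (vertical log axis, best rank at the top) at Pfkfb3 and 1110051M20Rik; circles are summits in the downstream region, triangles summits in the upstream region, and bars group medians. At Pfkfb3 the 4 mutants rank 2856 to 4269 and mutant on the diet 6 ranks 2403, and at 1110051M20Rik the groups overlap between 10924 and 26717.

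Elsewhere in Pfkfb3 the regions shared by every library were narrower than the pair window. The window joins 2 regions and a gap by construction, so these widths are not alike. The gene's 154 summits fell into 18 regions, 12 of them inside the gene, and 2 regions had a summit in every library, in the full lists and in the sets of equal size alike. One, chr2:11535565-11535633, lay inside the gene 18.3 kb past the outer start, and its summits covered 68 bp. Its median rank was 6742.5 in mutants on the diet, 5467 in controls on the diet, 4320 in mutants and 7805 in controls. Mutants 4 and 3 had the best ranks there, 1171 and 1732, and the ranges of all groups overlapped. The other, chr2:11391815-11391907, lay past the 3' end of the gene with ranks of 5127 to 16206.

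At the outer start, the promoter of the longer transcripts, a region 233 to 297 bp downstream (chr2:11553632-11553696) had a summit in 17 libraries. The exceptions were mutant on the diet 4 and mutant 4, each with the shortest list of its group, and mutant 4 had a summit 65 bp upstream of the outer start instead. The ranks there were 8883 to 22411, against 2403 to 10490 in the pair window at the inner start. Its summits covered 64 bp, against 148 bp in the upstream and 197 bp in the downstream region of the pair.

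The next region upstream in the gene, chr2:11503255-11503321, lay 1104 bp from the pair window, just outside the 1 kb limit that defines a neighbour. It had a deposited summit in 3 of 6 mutants on the diet, 4 of 5 controls on the diet, 4 of 4 mutants and 4 of 4 controls. In the sets of equal size it remained in 1 mutant on the diet, 3 controls on the diet, 2 mutants and 0 controls, and its ranks in the full lists were 15209 to 37318. The 4 controls had this summit at ranks of 30589 to 37318, so the cut at 29112 alone removed them. Summits of the whole gene numbered 6.67 ± 2.34 per library in mutants on the diet (SD, n = 6), 7.80 ± 0.837 in controls on the diet (SD, n = 5), 9.25 ± 2.87 in mutants (SD, n = 4) and 9.5 ± 2.65 in controls (SD, n = 4). In the sets of equal size they numbered 4.17 ± 0.408 in mutants on the diet, 4.60 ± 0.548 in controls on the diet, 4.50 ± 0.577 in mutants and 4.50 ± 0.577 in controls, and every group ranged from 4 to 5.

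1110051M20Rik spans chr2:91273240-91444714 (mm10, minus strand), with its start at 91444714. Its pair lay in the gene body about 14 kb past the start, away from any listed start site. The upstream region was chr2:91430629-91430730 and the downstream region chr2:91430281-91430376, with a gap of 253 bp and a window of 449 bp. Each of 19 libraries again had exactly 1 deposited summit in the window, and 0 had it in the gap.

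Measured from the start of the gene, the mutants on the diet 1 to 6 had their summits at 14010, 14433, 14344, 14058, 14376 and 14015 bp. The controls on the diet 1 to 5 had them at 14381, 14338, 14381, 14376 and 14352 bp. The mutants had them at 14065, 14063, 13984 and 14415 bp and the controls at 14085, 14064, 14069 and 14065 bp. The downstream region held 3 of 6 mutants on the diet, 5 of 5 controls on the diet, 1 of 4 mutants and 0 of 4 controls. Here the mutants did not stand apart from the controls as they did at Pfkfb3: only mutant 4 had its summit downstream. The 4 controls lay within 21 bp of each other and the 5 controls on the diet within 43 bp. The choice of the gene had put each of these groups in 1 region. The mutants on the diet were spread over both regions and spanned 423 bp, and the mutants spanned 431 bp through mutant 4.

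The side did not separate mutants on the diet from mutants (3 of 6 against 1 of 4 downstream, Fisher's exact test p = 0.571, adjusted p = 1) or from controls on the diet (3 of 6 against 5 of 5, Fisher's exact test p = 0.182, adjusted p = 1). The choice of the gene had fixed the side of the controls on the diet, so the comparison with them is no independent test. The ranks were 14466, 11016, 14239, 19534, 14541 and 26717 in mutants on the diet and 10924, 14765, 13578, 14587 and 17662 in controls on the diet. They were 23496, 19688, 19300 and 12694 in mutants and 12033, 15693, 17748 and 18143 in controls. All 4 groups overlapped, and every rank was poorer than every rank of the Pfkfb3 window. As a share of its own list, a summit here lay 13.2% to 67.1% from the top. On the minus log2 rank scale the mutants on the diet differed from mutants by 0.19 (SE 0.25, 95% interval -0.32 to 0.71; limma, adjusted p = 0.797). They differed from controls on the diet by -0.19 (SE 0.23, interval -0.67 to 0.30; limma, adjusted p = 0.999). With 1 library left out, the difference from mutants ran from 0.07 without mutant 1, whose labels conflict, to 0.37 without mutant 4. The difference from controls on the diet ran from -0.29 without mutant on the diet 2 to -0.04 without mutant on the diet 6. Of the mutants on the diet, replicate 6 came closest to leaving the sets of equal size, its rank of 26717 lying just inside 29112.

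The gene held 29 regions in the full lists, all inside it, and 14 in the sets of equal size. In the full lists 5 regions had a summit in every library, and in the sets of equal size 3 did. The start region, chr2:91444665-91444714, was 1 of these and is the stretch in capitals in the printed window. Its summits lay 0 to 1 bp past the start in mutants on the diet 5 and 6 and controls on the diet 4 and 5, and 42 to 49 bp past it in the other 15 libraries. The ranks there ran from 7052 to 27183. The best-ranked region, chr2:91399780-91400116, had ranks of 1970 to 12171 with a median of 4485, and its summits covered 336 bp. The median rank there was 3880 in mutants on the diet, 2859 in controls on the diet, 7556 in mutants and 7847.5 in controls, and the controls on the diet (1970 to 5669) overlapped the controls (4137 to 9500). A region 6202 bp upstream of the pair, chr2:91436932-91437305, had a summit in all 19 libraries, and in the sets of equal size in 5 of 6 mutants on the diet, 5 of 5 controls on the diet, 1 of 4 mutants and 3 of 4 controls.

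Another exclusive pair appeared in 1110051M20Rik when all deposited summits were used. Its regions, chr2:91411530-91411695 and chr2:91410959-91411271, had summits from 3 and 5 libraries, and the other 11 had none in either. The ranks of these summits were 62928 to 92298, outside the sets of equal size. Occupancy at this pair was a matter of presence or absence, while at the pair described above every library was present on 1 side. Ranks at that pair ran from 10924 to 17662 in the downstream region and from 12033 to 26717 in the upstream one, and overlapped. Summits of the whole gene numbered 13.3 ± 3.88 per library in mutants on the diet (SD, n = 6), 15.4 ± 2.51 in controls on the diet (SD, n = 5), 16.0 ± 4.24 in mutants (SD, n = 4) and 17.8 ± 2.06 in controls (SD, n = 4). In the sets of equal size they numbered 8.17 ± 1.33 in mutants on the diet, 8.0 ± 1.0 in controls on the diet, 7.75 ± 1.5 in mutants and 8.25 ± 1.26 in controls.

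**Figure D3:**
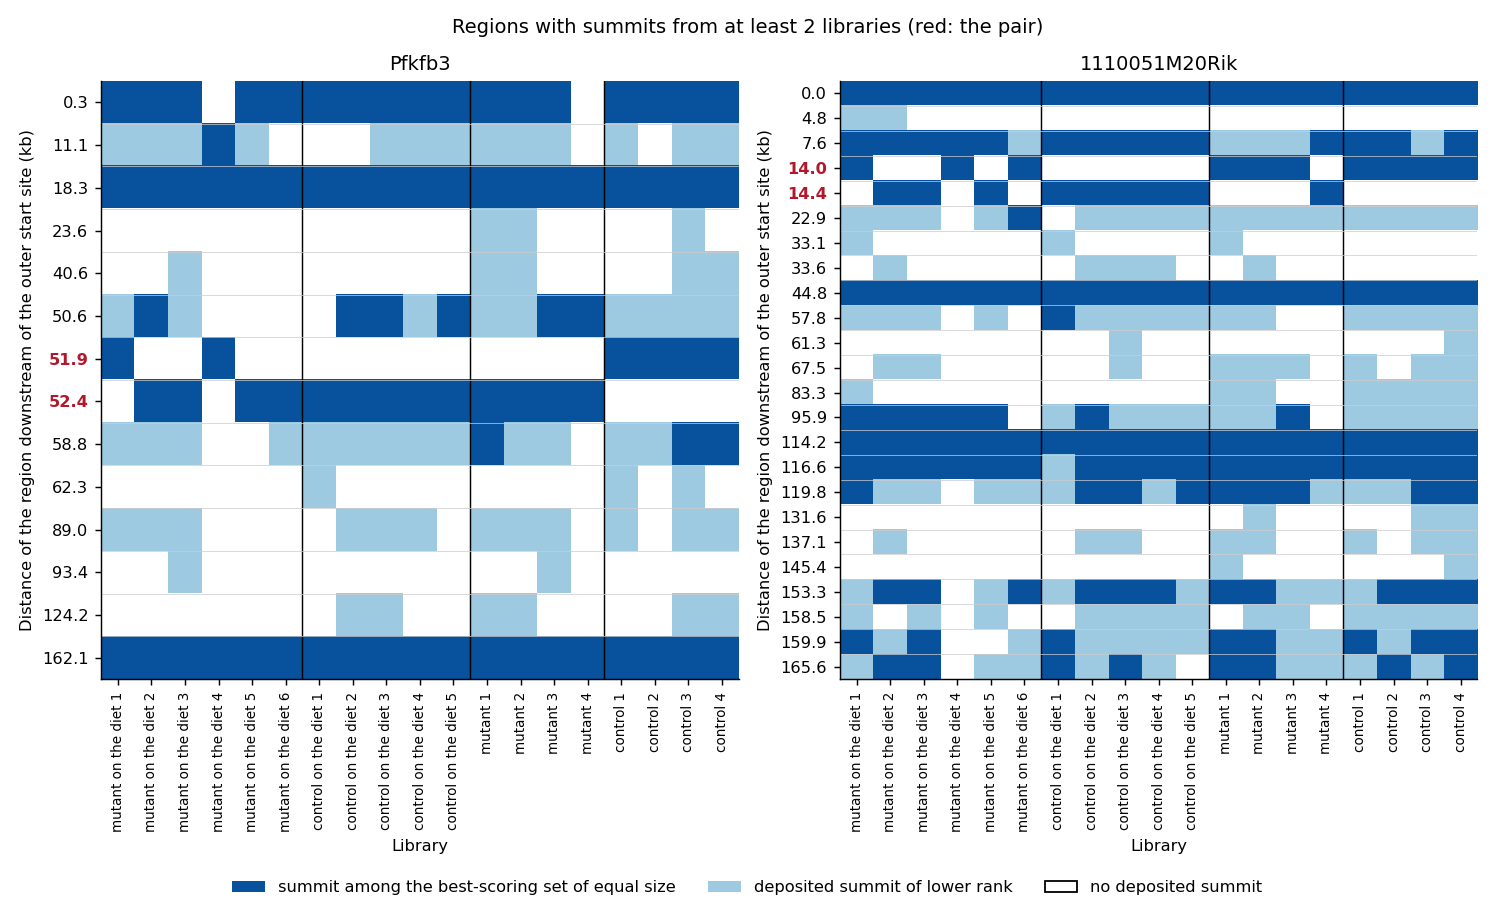
Regions of each gene with summits from at least 2 libraries (rows, labelled by distance past the outer start site in kb) in each library (columns); dark blue marks a summit among the 29112 best of a library, light blue a deposited summit of lower rank and white none. The rows of the pairs, labelled in red, fill each column in exactly 1 of the 2 rows, while the start region of 1110051M20Rik is dark in all 19 columns.

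The sides taken at the 2 genes went together in 15 of 19 libraries. For the 9 controls and controls on the diet that followed from the choice of the genes. Of the 10 others 6 had the same side at both, and mutant on the diet 6 and mutants 1, 2 and 3 were downstream at Pfkfb3 and upstream at 1110051M20Rik. The pairs elsewhere whose sides were most like Pfkfb3 were those nearest to Rbm19, which matched it in 17 of 19 libraries, Dapk1 in 16 and Usp6nl in 15. The sides of 18 pairs matched in as many as the last. For 1110051M20Rik the most alike were Pfkfb3, Chsy1 and Ilvbl, each matching in 15 of 19 libraries, and 4 pairs reached that number. These matches were picked from 2756 pairs and carry no test.

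How often a pair split in this way varied with its gap. The share without a shared library was 89.2% of 595 pairs with gaps under 250 bp, 70.1% of 1135 with gaps of 250 to 500 bp, where the gaps of 409 and 253 bp fall, and 23.0% of 1026 with gaps of 500 to 1000 bp. The pairs with every library in exactly 1 region made up 31.1%, 23.7% and 4.29% of the same bins. The 2 pairs at which controls on the diet lay opposite to controls were those of Pfkfb3 and 1110051M20Rik. Pfkfb3 was the 1 pair (0.0363%) at which mutants did so as well.

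**Figure D4:**
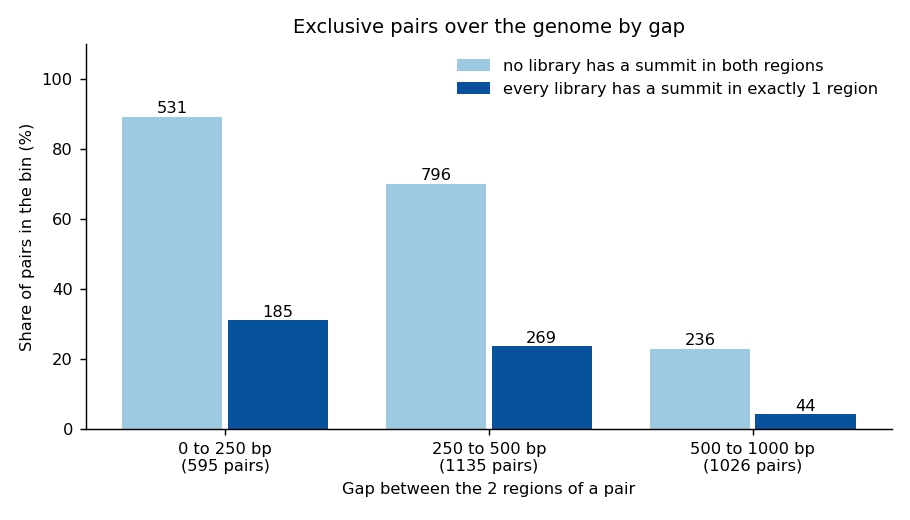
Share of neighbouring region pairs (vertical axis, percent, from 0) by the gap between their regions (horizontal axis, bp); light bars are pairs with no library in both regions and dark bars pairs with every library in exactly 1. The light bars are 89.2%, 70.1% and 23.0% and the dark bars 31.1%, 23.7% and 4.29%.

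The median pair window was 609 bp over all pairs and 487 bp over the 498 pairs with every library on 1 side. The Pfkfb3 window of 754 bp was longer than both medians and the 1110051M20Rik window of 449 bp shorter than both. Of 13035 regions with a summit in every library, the summits of all libraries covered a median of 115 bp, and 95% covered at most 320 bp. A pair window holds a gap over 200 bp by construction, so these spans and the pair windows are not alike. A start site lay in exactly 1 region of the pair, as at Pfkfb3, in 397 pairs (14.4%), and in 96 (19.3%) of the 498 pairs with every library on 1 side. The pairs with at least 6 libraries on the smaller side, as at both genes, numbered 596 (21.6%) of all pairs and 153 (30.7%) of the 498.

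Of 25 other genes of glycolysis and its control, 24 had a region, 2 had a neighbouring pair and 1 had an exclusive pair (4.00%), beside 5.38% of all protein-coding genes. That gene was Pfkfb1, a paralogue of Pfkfb3 on chromosome X. Its regions, chrX:150588172-150588323 and chrX:150588559-150588664, were 236 bp apart. The lower one in coordinates held 2 of 6 mutants on the diet, 4 of 5 controls on the diet, all 3 mutants with a side and 4 of 4 controls, and Fisher's exact test gave p = 0.167 against mutants and p = 0.242 against controls on the diet (adjusted p = 1 in each). The list had 0 genes with every library on 1 side, beside 1.96% of all protein-coding genes. Of 8 genes of the tubulin polyglutamylase complex and centriolar satellites, 7 had a region, 1 had a pair, Ofd1, and 0 had an exclusive one.

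Across libraries the lists held 29112 to 122591 summits, with 63769 ± 23749 in mutants on the diet (SD, n = 6), 77804 ± 13693 in controls on the diet (SD, n = 5), 95379 ± 30545 in mutants (SD, n = 4) and 98555 ± 22068 in controls (SD, n = 4). Read depth is not known from these files. Every named peak had 1 summit, and the closest summits of a library were 131 to 267 bp apart. Mutants 3 and 4 stood apart, with 7.69% and 5.61% of distances between neighbouring summits under 600 bp, against 0.465% to 1.25% in the other 17. Both had 1 summit in either pair window, like the others. Without mutant 3 the Pfkfb3 openness difference between mutants on the diet and mutants was -0.87 (limma, adjusted p = 0.425), and without mutant 4 it was -0.96 (limma, adjusted p = 0.331). Exclusive pairs numbered 1502 without mutant 3 and 1540 without mutant 4, against 1563 with all libraries. Of 10 neural progenitor markers 7, Sox2 and Fabp7 among them, had a summit of the equal-size set within 1 kb in every library, and each of 10 had one in some library. The same held in every library for 0 of 6 meningeal fibroblast, 0 of 5 microglial, 0 of 5 erythroid, 1 of 5 endothelial (Kdr) and 1 of 5 projection neuron markers (Neurod6). Markers with a summit in none of the libraries included Foxc2 and Lum of the meninges and 4 each of the endothelial, microglial and erythroid lists. In bulk libraries a change in the cells that make up a sample and a change within each cell cannot be told apart.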

How the data were processed

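Summit lists of 19 bulk ATAC-seq libraries were used as deposited, 1 base per summit with a score. The submitters' processing notes name BWA, MACS2, Signac and DiffBind, and mm10 and GRCm38, with no versions or roles. From the values, the deposited scores are minus log10 (−log10) q-values of the authors' peak caller, with lowest values of 1.30 to 1.32. They are not scaled between libraries, so ranks within a library were used.

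Summits at most 200 bp apart were chained into regions, kept with at least 2 libraries, from the best 29112 of each library. Neighbouring regions less than 1 kb apart formed a pair. A library's side was the region that held its summit, tested by 2-sided Fisher's exact test. Openness was minus log2 of the best rank in the pair window, a library without a summit taking the rank after its last, tested with limma 3.58.1 (trend and robust, 4 group coefficients, R 4.3.3). Both were adjusted by Benjamini-Hochberg over 2756 pairs. Python 3.11.15, pandas 2.3.3 and scipy 1.17.1 did the rest. The fit was tested on simulated data. Genes, starts and promoters came from RefSeq, GRCm38.p6. Peak widths, genome sequence and read depth were not used here.

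The genes, lists, markers and rules were chosen with earlier results of these data known. The named genes were both chosen genes, the 3 pairs most like each, and pathway genes with an exclusive pair. Ofd1 was named after its values were seen. No label says that replicates came from separate animals, so p-values measure the spread between these libraries. At most 0.00144% of summits had the same position and score in 2 libraries, so none was counted as a repeat. Alternatives covered the number of summits, chaining distance, gap limit, openness measure, replicate block and each library left out.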

Additional observations from a re-analysis of the deposited data

Results flagged for a closer look

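Dixon's criterion was applied to 32 groups of values of the 2 genes and picked out 4 libraries, where chance gives about 1 group in 20. That rate does not hold for the groups that are summit counts, which are small whole numbers with ties. In the Pfkfb3 pair window, mutant on the diet 6 had a minus log2 rank of -11.23, against -13.36 to -12.84 in the other 5 mutants on the diet. Control on the diet 2 had -12.93 in that window, against -12.56 to -12.48 in the other 4 controls on the diet. Mutant 4 had 5 deposited summits at Pfkfb3, against 10 to 11 in the other 3 mutants, and its list was the shortest of its group at 49804 summits. Mutant on the diet 2 had 5 Pfkfb3 summits in the set of equal size, against 4 in each of the other 5 mutants on the diet.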

How the results depend on the processing

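Over 108 recomputations of the 5 summary results, 97 kept their call or stayed within 1.5 times the count reported. These include the side tests, whose 0 calls could hardly change, since at these group sizes no single pair can pass the adjustment. The 97 therefore overstate how stable the other results were. Pairs with no library in both regions numbered 1563, and 5317 with all deposited summits, 695 with 14556 summits per library, 4353 with chaining at 100 bp, 704 with chaining at 300 bp and 1327 with gaps under 500 bp. Without each library in turn they numbered 1502 to 1573. In the openness comparison of mutants on the diet with mutants, limma called 0 windows, 0 to 70 with 1 library left out (70 without mutant on the diet 6, 21 without mutant 2, 8 without mutant 1, 2 without mutant 4 and 1 without mutant on the diet 5) and 42 with the replicate block. Against controls on the diet it called 0, and 3 on a log2(score + 1) scale. The side tests called 0 throughout. With the replicate block the Pfkfb3 difference from mutants was -1.32 (limma, adjusted p = 0.00698). No other library carries number 6, so the block takes mutant on the diet 6 out of the comparison. The lists of the 4 controls carry other numbers than their titles, and the block used the titles. No label says what libraries of the same number share. Over the pair windows, same-numbered deviations correlated at -0.236 to 0.186 between mutants on the diet and mutants. Between mutants on the diet and controls on the diet they correlated at -0.161 to 0.264. In these comparisons 2 of 8 and 3 of 10 libraries correlated best with their own number. These values show no clear pairing by number but cannot exclude one. On the score scale the median of all windows shifted by -0.67 against mutants, and relative to it Pfkfb3 lay at -0.45 and 1110051M20Rik at 0.06. With 14556 summits per library, 8 libraries had a side at 1110051M20Rik. Chaining at 300 bp joined its regions into 1, so that setting gives no value there. No library had a summit in both regions of either gene under any setting that kept the pair. That could not change, since each library had only 1 deposited summit in each window, so it says nothing about stability. Summit lists show neither read depth nor peak width, so a height difference between the regions of a pair could not be measured.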
